A study of Mus musculus with 4 samples.

Results

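The genes of the proteasome are described here by the histone marks that their chromatin carried in mouse macrophages. They were taken by symbol, as the protein-coding genes whose names begin with Psma, Psmb, Psmc, Psmd or Psme and go on with a number, without Psmb8 and Psmb9. This gave 44 genes of the 21887 protein-coding genes in the gene table. Of these, 17 encode the core particle (8 alpha and 9 beta subunits), 20 the regulatory cap (6 ATPases, 11 other subunits and 3 assembly chaperones that have Psmd names), and 5 carry the names of the Psme activators. The other 2, Psmc3ip and Psme3ip1, are named after proteasome genes but encode no part of the particle, and they are kept in the counts because the naming rule takes them.

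The proteasome is the cell's main protease for proteins tagged with ubiquitin. Its core is a barrel of stacked rings: alpha subunits form the outer rings and the gate, beta subunits the inner rings, and a few of the beta subunits cut peptide bonds. The cap binds ubiquitin, strips it off and unfolds the substrate, whereas the Psme proteins open the gate without ubiquitin. In macrophages and other cells that present antigen, interferon is known to raise a variant set, the immunoproteasome, in which Psmb8, Psmb9 and Psmb10 take the place of Psmb5, Psmb6 and Psmb7, together with Psme1 and Psme2.

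The study asked how 2 histone marks are laid out after lipopolysaccharide (LPS), the bacterial component sensed by Toll-like receptor 4. Trimethylated lysine 4 of histone H3 (H3K4me3) marks active and poised promoters, and trimethylated lysine 9 (H3K9me3) marks heterochromatin. Each mark was profiled by chromatin immunoprecipitation and sequencing in macrophages kept for 24 h with LPS and in macrophages kept for 24 h with phosphate-buffered saline (PBS). All cells were adherent peritoneal macrophages elicited with thioglycollate broth in C57BL/6 mice aged 8 weeks, with no genetic change named in the labels, and the labels do not say how many mice gave the cells. There were 4 libraries, 1 for each mark and treatment, so every difference below compares 1 LPS library with 1 PBS library, has no replicate check and carries no test.

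After the caller's filter there were 26748289 tags for LPS and 29681491 for PBS with H3K4me3, and 28586946 for LPS and 27727997 for PBS with H3K9me3. Peaks took up 14.0% (LPS) and 17.8% (PBS) of the H3K4me3 tags but 1.62% (LPS) and 1.69% (PBS) of the H3K9me3 tags. Of 9 macrophage markers, 8 had H3K4me3 peaks at a gene end in both treatments. Spi1 had one in the LPS list alone, with 503 tags over 4.94 kb. It was read at 1 gene end, and a marker missing from a list there may still carry the mark. Few markers of other cells had peaks in both lists: 1 of 5 for T cells (Cd4), 2 of 5 for B cells (Cd79a and Pax5), 0 of 5 for neutrophils and 1 of 4 for mesothelium (Wt1). Another 2 neutrophil markers were listed in LPS alone and 1 in PBS alone, and 2 mesothelial markers in PBS alone. The part that other cells play in the results was not tested.

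The promoters of 6 genes are shown because the results turn on them. Psme1, Psme2 and Psmb10 are the genes of the group known to respond to interferon, Psmb5 and Psmb6 encode catalytic subunits whose peaks were wider in LPS, and Psmb3 had a peak in PBS alone. Each line gives the 250 bases before the annotated start, 5′ to 3′ on the gene's own strand, from RefSeq on GRCm38.p6. Capitals mark matches, on either strand, to 3 of the 4 motifs searched: TGACNNNGC, the antioxidant response element bound by Nfe2l1 and Nfe2l2, an interferon-stimulated response element taken as GAAA and GAAA set 2 bases apart, and CCAAT, the CCAAT box. The fourth motif, the gamma-activated site TTCNNNGAA, reads the same on both strands. The windows lie at chr14:55578244-55578493 (plus strand, Psme1), chr14:55591102-55591351 (minus strand, Psme2), chr8:105938393-105938642 (minus strand, Psmb10), chr14:54617996-54618245 (minus strand, Psmb5), chr11:70525107-70525356 (plus strand, Psmb6) and chr11:97703184-97703433 (plus strand, Psmb3).
Psme1: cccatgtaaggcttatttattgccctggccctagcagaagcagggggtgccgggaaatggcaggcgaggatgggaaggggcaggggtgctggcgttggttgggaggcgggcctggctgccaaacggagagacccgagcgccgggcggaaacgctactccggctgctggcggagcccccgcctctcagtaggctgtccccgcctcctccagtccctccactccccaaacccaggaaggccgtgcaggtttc
Psme2: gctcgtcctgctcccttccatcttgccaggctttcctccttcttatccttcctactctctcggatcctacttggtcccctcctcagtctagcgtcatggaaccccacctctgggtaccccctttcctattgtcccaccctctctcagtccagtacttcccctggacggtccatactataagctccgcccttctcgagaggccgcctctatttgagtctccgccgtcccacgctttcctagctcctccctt
Psmb10: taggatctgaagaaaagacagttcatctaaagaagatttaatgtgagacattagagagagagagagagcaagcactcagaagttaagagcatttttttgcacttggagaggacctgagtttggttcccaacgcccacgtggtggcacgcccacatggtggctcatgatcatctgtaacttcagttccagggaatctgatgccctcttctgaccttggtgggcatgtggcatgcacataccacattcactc
Psmb5: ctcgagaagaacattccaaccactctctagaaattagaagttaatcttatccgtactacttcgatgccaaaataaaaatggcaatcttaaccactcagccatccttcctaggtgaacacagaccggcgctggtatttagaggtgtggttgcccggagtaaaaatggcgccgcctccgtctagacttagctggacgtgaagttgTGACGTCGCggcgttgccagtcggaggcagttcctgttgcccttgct
Psmb6: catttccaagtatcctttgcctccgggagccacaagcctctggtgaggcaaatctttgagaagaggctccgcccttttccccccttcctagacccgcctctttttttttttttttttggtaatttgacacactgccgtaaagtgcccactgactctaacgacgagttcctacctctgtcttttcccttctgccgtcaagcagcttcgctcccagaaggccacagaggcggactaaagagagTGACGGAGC
Psmb3: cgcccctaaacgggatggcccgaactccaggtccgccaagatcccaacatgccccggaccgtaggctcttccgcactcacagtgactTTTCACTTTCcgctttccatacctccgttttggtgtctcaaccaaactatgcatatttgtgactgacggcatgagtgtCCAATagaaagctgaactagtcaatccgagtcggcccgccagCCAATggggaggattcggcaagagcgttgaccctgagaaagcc

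In Psmb5 the antioxidant response element spans positions -47 to -39 from the start, and in Psmb6 positions -9 to -1. In Psmb3 the interferon-stimulated element lies at -163 to -154 on the opposite strand, with CCAAT boxes at -85 to -81 and -43 to -39, and no matches overlap in these 6 windows. Windows of 41 annotated starts of 37 of the genes were searched. The antioxidant response element was in 5 of them (12.2%), against 10.4% of all 21263 starts, the CCAAT box in 15 (36.6% against 35.4%) and the interferon-stimulated element in 3 (7.32% against 2.96%). The gamma-activated site was in 0 of the 41 windows and in 6.58% of all starts. A match describes letters in a window and says nothing of binding.

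The first comparison asked which proteasome genes carried H3K4me3 and whether the list of marked genes differed between LPS and PBS. Each gene was read at 1 of its outer ends, the one with more tags over both libraries. It was counted as marked where a deposited peak reached within 1 kb of that end. Nearly the whole particle was marked under both treatments. Both lists had a peak at 39 of the 44 genes (88.6%), against 60.1% of all protein-coding genes, and at 15 of 17 core genes, 18 of 20 cap genes and 4 of 5 activators. At the end used, 1 gene, Psmd8, was listed in LPS alone (background 1.26%), 2, Psmb3 and Psmd10, in PBS alone (background 3.14%), and 2, Psmb11 and Psme2b, in neither list (background 35.5%). Where a peak at either outer end counts, Psmd8 joins the genes marked in both lists. The counts are then 40 in both (background 60.3%), 0 in LPS alone (background 1.18%), 2 in PBS alone (background 2.97%) and 2 in neither (background 35.5%). A gene that a list does not name was under the peak caller's threshold there, and may still carry the mark.

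The genes without a peak in either list are special members of the family. Psmb11 encodes the beta subunit of the thymus, used by cortical epithelial cells, and had 0 tags in peaks in LPS and 0 in PBS. Psme2b, a gene closely related to Psme2, also had 0 in LPS and 0 in PBS. Psma8, the alpha subunit of the testis, did have peaks in both lists, but they were among the smallest of all the members, with 27 tags in LPS and 34 in PBS, over 0.519 kb (LPS) and 0.627 kb (PBS).

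The genes in 1 list only were read at the peak itself. Psmb3, a beta subunit with no catalytic site, had 0 listed tags in LPS and a PBS peak of 186 tags over 1.04 kb at chr11:97703382-97704420, with a score of 82.9 where the list ends at 50. Its PBS tag count was above that of Psmb1 and Psmb6, which were listed in both treatments. Its score was below their PBS scores of 221 (Psmb1) and 347 (Psmb6), so by score it was the weaker call. Under the stricter score limit used as an alternative, Psmb3 is not listed in PBS either. Psmd10, the chaperone also called gankyrin, had 0 listed tags in LPS and 2 PBS peaks of 50 tags each on chromosome X, with scores of 183 and 201.

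Psmd8, a cap subunit, was read at the outer end away from its start, where the peak is shared with neighbours. The LPS peak within reach of that end held 610 tags over 5.04 kb and also reached ends of Ggn and Spred3, and the PBS peak there stopped short of the window. At the annotated start, which is the other outer end of Psmd8, there were 204 tags in LPS and 300 in PBS, a log2 ratio of -0.41 (95% counting interval -0.67 to -0.14). Both lists thus had a peak at the start of Psmd8.

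The second comparison asked how much H3K4me3 the genes had in LPS relative to PBS. For each gene with peaks in both lists, the tags in its peaks were divided by the library's filtered tags and the log2 ratio of LPS to PBS was taken, with an exact 95% interval that covers counting error only. Tags at most promoters of the genome were fewer in LPS, and the proteasome genes followed that general level. Their median log2 ratio was -0.33 (quartiles -0.50 and -0.23, 39 genes), and that of all 13151 genes with peaks in both lists was -0.36 (quartiles -0.53 and -0.22). More than that median of all genes was found at 23 of the 39, where the background is 50%. In bulk chromatin a smaller share of marked cells, a lower mark in each cell and a less efficient immunoprecipitation cannot be told apart. Of all H3K4me3 tags, peaks held 14.0% in the LPS library and 17.8% in the PBS library. The part that this difference between libraries plays in the ratios was not tested. The ratio was below 0 at 35 members and above 0 at 4, namely Psma6, Psmb5, Psmb6 and Psmd5.

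No member reached a 2-fold difference. Counted were the 37 members with 100 tags or more in the 2 libraries together, of which 0 were at least 2-fold higher in LPS (background 0.37%) and 0 at least 2-fold lower (background 3.65%). At 1.5-fold, 0 were higher (background 1.01%) and 3, Psmb2, Psmb7 and Psmd1, were lower (background 18.8%). On the scale where the median of all genes is 0, 1 member, Psmb6, was at least 1.5-fold higher (background 3.23%) and 0 were at least 1.5-fold lower (background 4.32%). Per covered kb, 0 were at least 1.5-fold higher (background 0.394%) and 1, Psmb5, was at least 1.5-fold lower (background 3.44%). With 37 genes these counts are small, and the 3 of 37 that were lower in tags lay under the background share.

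**Figure D1:**
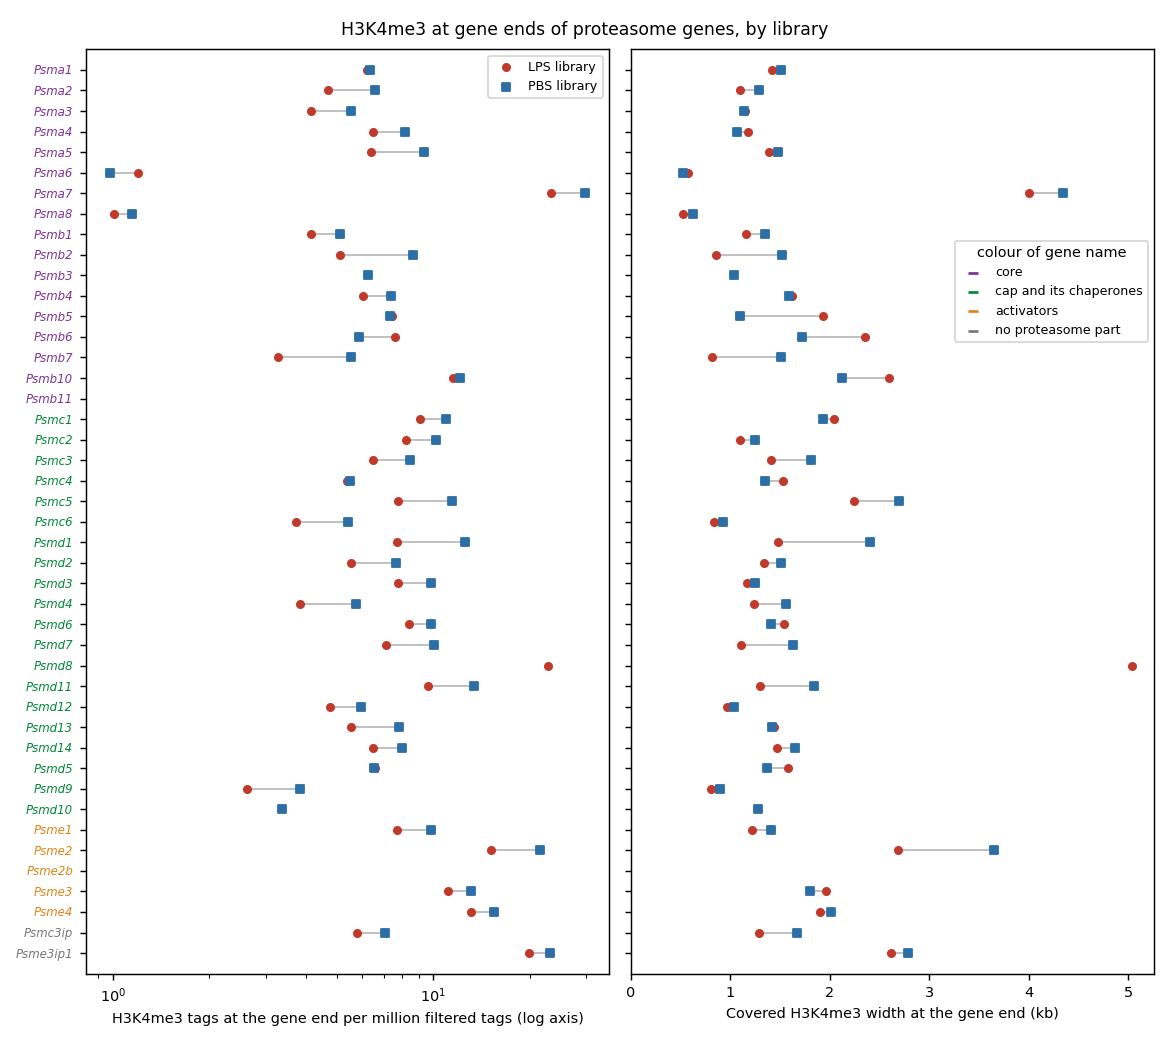
H3K4me3 at the gene ends of the 44 genes, 1 gene a row. The left panel gives tags in peaks, scaled to the filtered tags of each library, on a log axis, the right panel the length covered by peaks in kb, with a circle for the LPS library, a square for the PBS library and gene names coloured by class. Most circles lie left of their squares in both panels, Psma7 has the most tags in LPS and in PBS, and rows with 1 symbol or none are the genes listed in 1 treatment or neither.

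The LPS library had fewer tags at these genes and also narrower peaks. The median member had 174 tags in LPS and 237 in PBS, over 1.39 kb (LPS) and 1.51 kb (PBS), and the median of all genes was 200 tags and 1.61 kb in LPS, 289 tags and 1.83 kb in PBS. Peaks were wider in PBS at 26 of the 39 members (66.7%), near the 71.9% of all genes. Since a called width and its tags move together, each ratio was also taken per covered kb. On that scale the median was -0.21 for the members and -0.21 for all genes, so there the members and the genome did not differ in their second decimal. Per covered kb the median member held 120 tags in LPS and 164 in PBS.

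The classes differed little. The median log2 ratio was -0.30 for core genes (15 genes), -0.42 for cap genes (18 genes) and -0.30 for the activators (4 genes). Their ranges overlapped throughout: -0.75 to 0.37 in the core, -0.71 to 0.0096 in the cap and -0.51 to -0.24 among the activators. Above the median of all genes lay 10 of 15 core genes, 8 of 18 cap genes and 3 of 4 activators. Per covered kb the medians of core and cap were -0.24 and -0.24, and that of the activators was -0.15. The gap between core and cap in tags was therefore not present per covered kb.

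Median levels set the activators further apart than median ratios did. Their median was 324 tags in LPS and 424 in PBS, above the 162 (LPS) and 196 (PBS) of core genes and the 175 (LPS) and 244 (PBS) of cap genes. Per covered kb, the median was 161 (LPS) and 212 (PBS) for the activators, 109 (LPS) and 145 (PBS) for the core, and 120 (LPS) and 159 (PBS) for the cap. The lowest activator, at 151 tags per kb in LPS and 175 in PBS, was still above the core and cap medians of the same library. The ranges overlapped, however. The highest cap gene had 202 tags per kb in LPS and 242 in PBS, and the highest activator 184 (LPS) and 228 (PBS). With 4 activators, this describes those genes and was not tested.

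**Figure D2:**
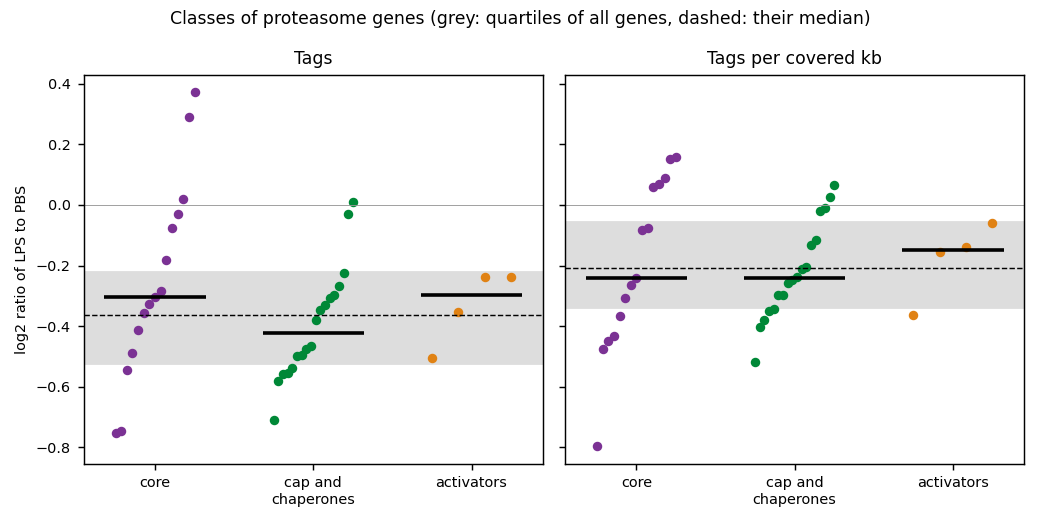
Log2 ratio of LPS to PBS at the members with H3K4me3 peaks in both lists by class, from tags (left) and from tags per covered kb (right), with 1 point a gene, the class median as a thick line, the median of all genes dashed and their quartiles in grey. In tags, the medians lie at -0.30 for the core, -0.42 for the cap and -0.30 for the activators, close to the -0.36 of all genes, and the points of the classes overlap.

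Among the alpha subunits, which shape the outer rings, all 8 genes had peaks in both lists and a median log2 ratio of -0.34. The lowest was Psma5, whose 171 LPS tags and 277 PBS tags gave -0.55 (-0.83 to -0.27), and the next was Psma2 at -0.49. Psma7 had the most tags of any member, 623 in a 4.01 kb LPS peak and 886 in a 4.35 kb PBS peak (-0.36, -0.51 to -0.21). Its peak also reached an end of Ss18l1, so the tags belong to both genes.

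Psma6 has 2 annotated starts, and its ratio differed in sign between them. At the outer start, which the end rule used, it had 32 tags in LPS and 29 in PBS (0.29, -0.48 to 1.07), one of the smallest peaks of the group and the highest ratio of the alpha genes. At the inner start, which had more tags, it had 113 tags in LPS and 181 in PBS, a log2 ratio of -0.53 (-0.88 to -0.18). Psma3 likewise had 111 tags in LPS and 164 in PBS at its outer end (-0.41), against 159 in LPS and 300 in PBS at its single annotated start, which lies inside the gene (-0.77, -1.05 to -0.48). At both genes the ratio was lower at the inner start than at the outer end.

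The beta subunits held both extremes of the whole group. Psmb6, the constitutive subunit that cuts after acidic residues, had 203 tags in LPS and 174 in PBS, a log2 ratio of 0.37 (0.07 to 0.67). This was the highest value of the 39 genes and the only one whose counting interval lay wholly above 0. Its peak covered 2.35 kb in LPS and 1.72 kb in PBS, and per covered kb the ratio was -0.08.

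Psmb5, the constitutive subunit that cuts after hydrophobic residues and the main target of proteasome inhibitors, had 199 tags in LPS and 218 in PBS (0.019, -0.27 to 0.30). Its covered length was 1.93 kb in LPS and 1.10 kb in PBS. Per covered kb it had 103 tags in LPS and 198 in PBS, and the log2 ratio of -0.80 was the lowest of all members on that scale. The tags were thus nearly level but spread over a longer region in LPS.

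Psmb7, the constitutive subunit that cuts after basic residues, went the other way. It had 88 tags in LPS and 164 in PBS, over 0.81 kb (LPS) and 1.51 kb (PBS), a log2 ratio of -0.75 (-1.14 to -0.37), and 0.15 per covered kb. Psmb2, a beta subunit with no catalytic site, had 137 tags in LPS and 256 in PBS, over 0.858 kb (LPS) and 1.52 kb (PBS), for a log2 ratio of -0.75 (-1.06 to -0.45), and 0.07 per covered kb. At both genes the tag density was close between the libraries and the LPS peak was about as much shorter as it had fewer tags. The constitutive catalytic genes therefore did not move as a set, since their log2 ratios of 0.37 (Psmb6), 0.019 (Psmb5) and -0.75 (Psmb7) span almost the full range of the group.

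Psmb10, the interferon-inducible counterpart of Psmb7, had 308 tags in LPS and 360 in PBS, over 2.60 kb (LPS) and 2.12 kb (PBS). Its log2 ratio was -0.075 (-0.30 to 0.15), and -0.37 per covered kb. Psmb8 and Psmb9, the other inducible subunits, lie outside the naming rule and are given for comparison. Psmb8 had 399 tags in LPS and 402 in PBS (0.14, -0.06 to 0.34), and Psmb9 had 503 in LPS and 628 in PBS (-0.17, -0.34 to 0.0014). From the annotated start, the Psmb9 peak had its summit at -671 bp (LPS) and -722 bp (PBS). The Psmb8 peak reached from its start to -1810 bp (LPS) and -1023 bp (PBS). Whether neighbouring genes share these tags was not tested. All 3 inducible genes lay above the -0.36 of all genes in tags, and their peaks were wider in LPS. Per covered kb they were at -0.37 (Psmb10), -0.25 (Psmb8) and -0.30 (Psmb9), below the -0.21 of all genes, so their place relative to the genome depended on the scale.

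**Figure D3:**
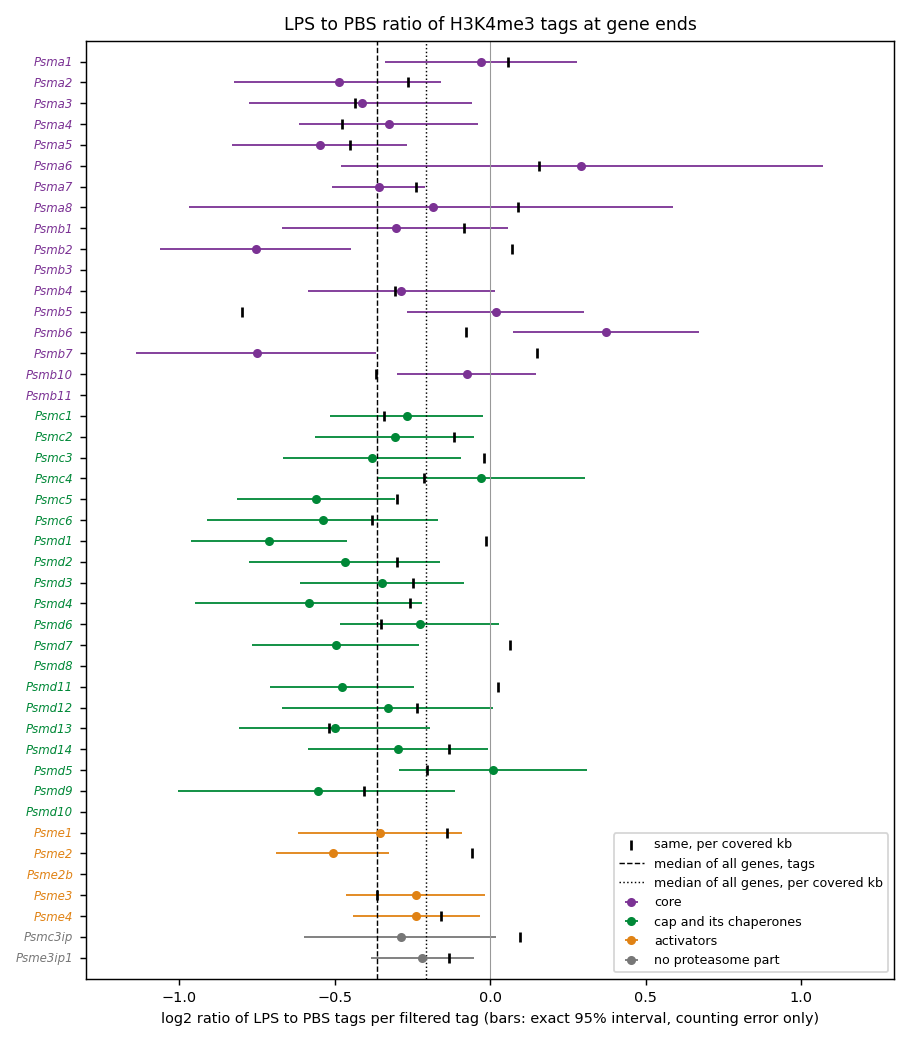
Log2 ratio of LPS to PBS H3K4me3 tags at the gene ends, 1 gene a row, coloured by class, with exact 95% intervals that cover counting error only. Black ticks give the same ratio per covered kb, and the vertical lines mark the median of all genes in tags (dashed) and per covered kb (dotted). Most points lie between -0.75 and 0 around the dashed line, Psmb6 lies farthest right of the genes with a narrow interval, and for Psmb2, Psmb5 and Psmb7 the tick is far from the point.

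Among the cap ATPases, the motor that unfolds substrates, all 6 genes had peaks in both lists and a median of -0.34. The highest was Psmc4, whose 144 LPS tags and 163 PBS tags gave -0.029 (-0.36 to 0.30). Psmc5 was lowest and widest, with 208 tags in LPS and 340 in PBS, over 2.25 kb (LPS) and 2.69 kb (PBS), for a log2 ratio of -0.56 (-0.81 to -0.31), in a peak that reached an end of Ftsj3. Psmc6 was narrowest, at 0.83 kb with 100 tags in LPS and 0.925 kb with 161 tags in PBS (-0.54, -0.91 to -0.17). No ATPase had a ratio above 0.

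The 10 other cap subunits with peaks in both lists had the lowest median of the subclasses in tags, -0.47. Per covered kb their median of -0.24 was not the lowest. It lay above the chaperones (-0.30), the ATPases (-0.26) and the alpha genes (-0.25), and below the beta genes (-0.084). Peaks were wider in PBS at 8 of the 10 (80%, against 71.9% of all genes). Psmd1, the large scaffold subunit, was lowest, with 206 tags in LPS and 374 in PBS, over 1.48 kb (LPS) and 2.41 kb (PBS), for a log2 ratio of -0.71 (-0.96 to -0.46), and -0.012 per covered kb. Psmd2, the other large scaffold, had 148 tags in LPS and 227 in PBS (-0.47). The ubiquitin receptor Psmd4 had 103 in LPS and 171 in PBS (-0.58), and the deubiquitinase Psmd14 had 174 in LPS and 237 in PBS (-0.30). Psmd6 was highest of these genes at -0.23.

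The assembly chaperones with Psmd names were spread out. Psmd5 had 176 tags in LPS and 194 in PBS (0.0096, -0.29 to 0.31), the highest value of any cap gene. Psmd9 had 70 tags in LPS and 114 in PBS, over 0.807 kb (LPS) and 0.895 kb (PBS), for a log2 ratio of -0.55, the fewest tags and the narrowest peaks of the cap genes in both lists. The third, Psmd10, had the PBS peaks given above.

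Of the activators, Psme1 and Psme2 encode the alternating subunits of the interferon-inducible ring. Psme1 had 206 tags in LPS and 292 in PBS, over 1.22 kb (LPS) and 1.41 kb (PBS), for a log2 ratio of -0.35 (-0.62 to -0.09). Psme2 had 405 tags in LPS and 638 in PBS, over 2.68 kb (LPS) and 3.65 kb (PBS), for a log2 ratio of -0.51 (-0.69 to -0.32). In tags Psme1 was close to the -0.36 of all genes and Psme2 was below it, but the place of Psme2 depended on which of its peaks were summed. With peaks of score 100 or more alone Psme2 was at -0.21, above the -0.37 of all genes on that choice, and with a window of 500 bp it was at -2.09. Per covered kb the genes were at -0.14 (Psme1) and -0.059 (Psme2), above the -0.21 of all genes.

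The Psme2 value was made of separate peaks. The one nearest to the start, at chr14:55591155-55591583 in LPS and chr14:55591145-55591581 in PBS, held 63 tags in LPS and 99 in PBS and overlies the promoter sequence printed above. The one with the most tags held 342 in LPS and 340 in PBS, with its summit 935 bp upstream of the start in both libraries, and reached an end of the neighbour Rnf31. PBS also had a peak of 199 tags on the gene, at chr14:55589168-55590984, with a score of 58.4, close to the lower limit of the list. Most of the difference in tags at Psme2 thus lay in a region that the LPS list does not name.

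Psme3 and Psme4 encode activators of the nucleus. Psme3 had 297 tags in LPS and 389 in PBS, over 1.96 kb (LPS) and 1.80 kb (PBS), for a log2 ratio of -0.24 (-0.46 to -0.02). Psme4 had 351 tags in LPS and 459 in PBS, over 1.91 kb (LPS) and 2.01 kb (PBS), for a log2 ratio of -0.24 (-0.44 to -0.03). The counting intervals of all 4 activators lay below 0 and included the -0.36 of all genes. Psmc3ip, a meiotic recombination factor, had 155 tags in LPS and 210 in PBS (-0.29), and Psme3ip1, a partner of Psme3, had 533 in LPS and 688 in PBS (-0.22), so the genes taken by name alone lay in the same range.

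Peak position was read at annotated starts, which the promoter table gives for 37 of the members, at the one with the most tags where a gene has several. Both lists had a peak at 33 of them, 0 were in LPS alone and 2 in PBS alone. The strongest peak had its summit at a median of 204 bp (LPS) and 200 bp (PBS) downstream of the start, and over all genes at 210 bp (LPS) and 195 bp (PBS). The summits of the LPS and PBS libraries were within 100 bp of each other at 27 of the 33 (81.8%, against 73.2% of all genes). At these 27 genes the summit thus sat in nearly the same place under both treatments.

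The share of members whose peaks covered the start itself was below that of all genes in each library, with no test. In LPS a peak covered the annotated start at 18 of the 33 (54.5%, against 85.0% of all genes) and in PBS at 25 of the 33 (75.8% against 90.1%). The count rests on small distances between called edges and starts. Where LPS peaks missed the start, the nearest edge was closer than the caller's fragment estimate of 149 bp, except at Psmd8 (157 bp). Examples are Psmc6 (9 bp), Psmc4 (21 bp) and Psma1 (36 bp). Psmb6 shows the difference between the libraries: its LPS peak began 41 bp inside the gene and its PBS peak began 61 bp before the start, at -61. Its summit was at 964 bp in LPS and at 200 bp in PBS. Psmb10 began at 28 bp in LPS and at -166 bp in PBS, whereas Psmb5 began at -231 bp in LPS and at -45 bp in PBS.

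**Figure D4:**
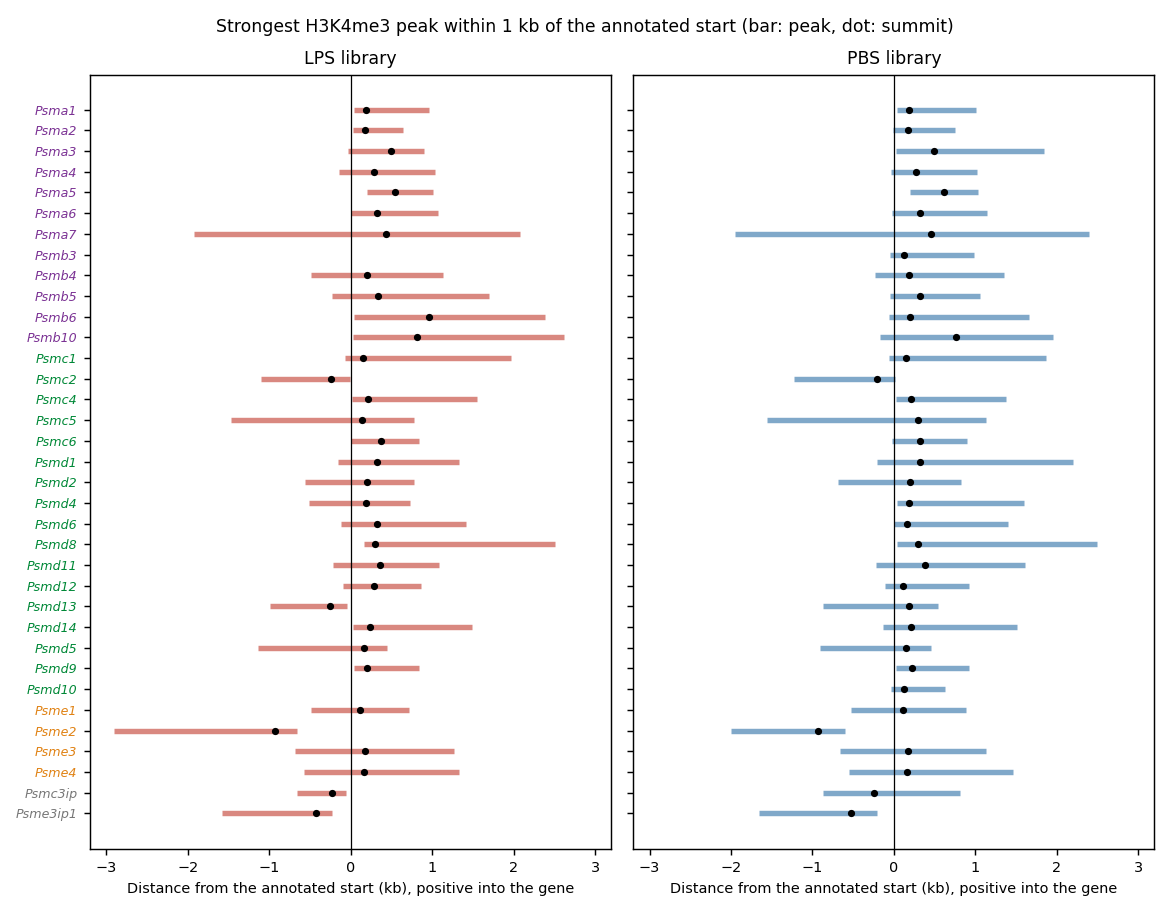
Extent of the strongest H3K4me3 peak around the annotated start of the 35 members that have one and a peak, in kb along the direction of transcription, with the LPS library on the left and the PBS library on the right. Bars run from the upstream to the downstream edge, dots give the summit, and names are coloured by class (purple core, green cap, orange activators, grey no proteasome part). Most bars begin near the start and run into the gene with the summit just inside it, and the peaks of Psme2 and Psmc2 lie upstream, towards Rnf31 and Dnajc2. The strongest peak also lies upstream at Psme3ip1 in both libraries, and at Psmd13 and Psmc3ip in LPS.

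Some peaks were shared with neighbouring genes. At 8 of the 39 members with peaks in both lists (20.5%, against 21.7% of all genes), a peak also reached an end of another protein-coding gene. Besides Psma7, Psmc5 and Psme2 these were Psma2 with Mrpl32, Psma4 with AY074887, Psmc2 with Dnajc2, Psmd13 with Sirt3, and Psme3ip1 with Rspry1. At these genes the tags cannot be divided between the neighbours.

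Other genes that build, regulate or feed the proteasome were taken from a list of 34. Both lists had a peak at 31 of them, and the 3 without one at an outer end, Fbxo7, Psmf1 and Ecpas, had peaks in both lists at annotated starts. Their median log2 ratio was -0.40 in tags, below the -0.36 of all genes, and -0.10 per covered kb, above the -0.21 of all genes. In tags 10 of the 31 were at least 1.5-fold lower in LPS (background 18.8%). The lowest was Ddi2, the protease that releases the transcription factor Nfe2l1, with 238 tags in LPS and 524 in PBS, over 1.49 kb (LPS) and 4.12 kb (PBS), for a log2 ratio of -0.99 (-1.22 to -0.76), although per covered kb it was at 0.48. Pomp, the chaperone of the core, had 326 tags in LPS and 441 in PBS (-0.29), and Nfe2l2, a factor that binds the antioxidant response element, had 466 in LPS and 682 in PBS (-0.40). Peaks were wider in PBS at 28 of the 31 (90.3%), and at 71.9% of all genes.

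The third comparison asked whether the gene bodies carried H3K9me3. Peaks lay on 11 of the 44 bodies in LPS (25%, background 26.6%), on 3 in PBS (6.82%, background 24.5%) and on 1 in both lists (background 16.1%). In either list there were 13 (29.5%, background 35%). Proteasome genes are shorter than most, and of the 6633 genes between 6.39 and 22.7 kb, the quartiles of member length, 19.4% had a peak in LPS, 15.1% in PBS and 25.8% in either. The LPS share was near the background and the PBS share was below it, from counts of 11 and 3 genes.

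By class, the bodies with a peak were 5 of 17 core genes, 4 of 20 cap genes and 2 of 5 activators in LPS, and 1 core gene, 2 cap genes and 0 activators in PBS. In LPS the genes were Psma6, Psma7, Psma8, Psmb2, Psmb5, Psmd3, Psmd5, Psmd7, Psmd11, Psme2 and Psme4, and in PBS they were Psmb4, Psmd1 and Psmd5. None of the 6 ATPase genes had one in either list, a small set beside the 25.8% of genes of like length that had one. The peaks were small, with 13 to 64 tags, where the lists end at 12 tags in LPS and 11 in PBS. The caller's fragment estimate was 71 bp (LPS) and 66 bp (PBS) for H3K9me3, against 149 bp (LPS) and 142 bp (PBS) for H3K4me3, and its part in these calls was not tested. Of the LPS peaks, 8 of 11 (72.7%) overlapped an H3K4me3 peak of the LPS list, against 50.8% of all H3K9me3 peaks on gene bodies, and of the PBS peaks 2 of 3 (66.7% against 39.5%).

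Psmd5 was the one gene listed in both treatments. Its H3K9me3 peak held 64 tags at chr2:34861375-34862045 in LPS and 38 tags at chr2:34861541-34862037 in PBS, 8920 bp (LPS) and 8928 bp (PBS) from the nearest gene end. The same place had H3K4me3 peaks of 42 tags in LPS and 40 in PBS, away from both gene ends. After Psmd5, the LPS peaks with the most tags were those of Psma7, with 41 tags, and Psme4, with 36 tags. They lay 112 bp (Psma7) and 7 bp (Psme4) from a gene end, on the H3K4me3 peaks there. The smallest were Psma8 with 13 tags in LPS and Psmb4 with 14 tags in PBS.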

How the data were processed

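H3K4me3 and H3K9me3 were profiled in 4 libraries, 1 for each mark and treatment. The submitters' processing notes list Bowtie 0.12.8, CASAVA 1.4, DiffBind and MACS 1.4.2, on mm10. Each library had its own peak calls, made by MACS without a control at a p threshold of 1e-05, per the file headers. For each peak the deposited tables give the position, the count of tags, a score (minus 10 times the base 10 logarithm of the caller's p-value) and a fold enrichment over the caller's background. The authors' score served to describe and filter single peaks, and the authors' fold was not used. The positions and widths are as deposited.

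From these, the tags and lengths of all peaks that reached within 1 kb of the gene end used were summed per gene. Each such peak was counted whole, including the part outside the window. Tags were scaled by the filtered tags in the headers, with exact 95% Clopper-Pearson intervals that cover counting error only. Gene ends came from a RefSeq table of GRCm38.p6, the assembly of mm10, without strand. Annotated starts and promoter sequences came from a RefSeq promoter table of the same assembly, which matched 37 of the 44 members by symbol. H3K9me3 peaks were assigned to the bodies they overlapped. With 1 library per group no test was made, so members are set beside all 21887 protein-coding genes. Fold counts needed at least 100 tags over the pair of libraries.

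Genes named in full were the activators, the catalytic subunits, Psma8, the highest, lowest, widest and narrowest of each class, those in 1 list or neither, and those with H3K9me3. Members, lists and motifs were chosen with earlier results of these data known. Alternatives covered the window, score limit, position used, scaling, width, fold and overlap. Python 3.11.15, pandas 2.3.3, NumPy 2.4.6 and SciPy 1.17.1 were used. The assignment and intervals were tested on simulated data.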

Additional observations from a re-analysis of the deposited data

How the results depend on the processing

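Of 110 alternative values for counts and medians, 87 stayed within 1.5 times (counts) or within the spread among genes (medians) and 23 moved. Of 371 alternative values for single genes, 320 stayed within the counting interval and 51 moved. Among those that stayed, some could not have moved, because 2 of the choices only leave genes out. These were 37 values without the genes of no proteasome part and 31 without members that share a peak. The sign of a single gene's ratio differed at 10 of 39 genes per covered kb, at 19 of 39 with the median of all genes at 0, at 3 of 39 scaled by all tags, at 1 of 37 at a score of 100 or more (Psma1, 0.016) and at 1 of 32 at annotated starts (Psma6, -0.53). With a 2.5 kb window 1 member was listed in PBS only and 1 in neither. With a 500 bp window 0 were in LPS only and 1 (Psme2, -2.09) was 2-fold lower. At a score of 100 or more 1 was in PBS only, 5 in neither, and 1 (Psma5, -1.04) was 2-fold lower, with Psme2 at -0.21. At annotated starts 0 were in LPS only, as where a peak at either outer end counts (0), a choice added after seeing the data. At 1.5-fold, 3 were lower. Per covered kb the medians were -0.21 (all members), -0.24 (cap) and -0.15 (activators), with -0.21 for all genes. Scaled by all tags they were -0.23 (all members) and -0.19 (activators), with -0.26 for all genes. With the median of all genes at 0 they were 0.036 (all members), 0.061 (core), -0.058 (cap) and 0.068 (activators). H3K9me3 peaks lay on 5 bodies in PBS and on 2 in both lists with 1 kb added on either side, and at a score of 100 or more on 4 in LPS and 1 in PBS. No paired analysis was possible because each group held 1 library. Depth limits the smallest peaks most: the fewest tags in a listed H3K4me3 peak were 17, and a gene under the threshold has no value.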
